A study of Mus musculus with 6 samples.

Results

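Transcripts of 10 integrin subunits were described in naive CD4 T cells that lacked or carried Ly-6C. The subunits are the alpha chains Itgal, Itga4, Itgae, Itga6 and Itgav and the beta chains Itgb2, Itgb7, Itgb1, Itgb3 and Itgb8. They were chosen by name, with earlier results of these data known. Each was measured by the 1 probe set that the platform annotation gives to that gene alone. All 10 were found among the 19938 genes of the table. Values are log2 expression, on which a step of 1 is a doubling. The source was peripheral lymph nodes of 6-week-old mice of the C57BL/6 Foxp3-GFP strain, whose green fluorescence marks cells with Foxp3, the factor of regulatory T cells; donors of both groups carried this reporter. The Ly-6C-negative cells were sorted as CD4+, CD8-, TCRβ+, CD44lo, CD25-, Foxp3- and Ly-6C-, and the Ly-6C-positive cells as CD4+, CD8-, TCRβ+, CD44lo, CD25-, Foxp3- and Ly-6C+. There were 3 Affymetrix arrays of either population, called biological replicates by the labels, which do not say how many mice gave each. The question is whether integrin transcripts differ with Ly-6C. Differences are given throughout as the Ly-6C-negative mean minus the Ly-6C-positive mean.

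Integrins are adhesion receptors made of an alpha and a beta chain that cross the membrane together. On resting lymphocytes they are mostly folded in a state of low affinity, and signals from chemokine or antigen receptors open them through talin and kindlin, which bind the beta tail. In naive T cells LFA-1 (alpha L with beta 2) carries firm adhesion to lymph node vessels and to antigen-presenting cells, and the alpha 4 integrins serve entry into gut-associated tissue and adhesion to inflamed vessels.

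The arrays follow the sort. The probe sets listed jointly under Ly6c1 and Ly6c2, 2 in number, had Ly-6C-negative values 9.03-fold and 6.03-fold lower (limma over all 28853 probe sets, adjusted p of 3.94e-05 and 0.000675). The T cell genes Cd4, Cd3e and Ccr7 lay between 10.30 and 11.92 on Ly-6C-negative arrays and between 10.52 and 11.84 on Ly-6C-positive arrays, all above the median gene at 6.37. All 11 measured B cell markers and all 12 dendritic cell markers had means below that gene. So did 10 of 12 monocyte and neutrophil, 8 of 10 NK and innate lymphoid and 7 of 11 stromal and endothelial markers. Fewer lay below among platelet and erythrocyte (4 of 7), CD8 T cell (5 of 10) and regulatory T cell markers (3 of 12). The median log2 value of an array lay between 6.25 and 6.29. On the first principal component, which held 34.6% of the variance, Ly-6C-negative replicate 2 had a score of 19.9 and the other 5 arrays had scores from -10.0 to -0.26. Precision is limited by the number of arrays, and p-values measure only the spread between these arrays. In such sorted pools, fewer cells with a transcript and less transcript per cell cannot be told apart.

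None of the 10 subunits passed the test between Ly-6C-negative and Ly-6C-positive cells. With limma's moderated test and Benjamini-Hochberg adjustment over all genes, 0 of 10 had an adjusted p under 0.05, where 29 genes or 0.145% of all genes did, with 20 higher in Ly-6C-negative cells (0.1%) and 9 lower (0.0451%). The adjusted p of the 10 lay between 0.732 and 0.967. At an unadjusted p under 0.05 there was 1 member, Itgal, against 6.71% of all genes. The differences ran from -0.14 for Itga6 to 0.26 for Itgal, with standard errors from 0.063 to 0.11. The 95% intervals of all 10, not adjusted for their number, lay within a 1.5-fold change either way. The farthest bounds were a 1.41-fold higher level, for Itgal, and a 1.27-fold lower level, for Itga6. Intervals of 19695 of the 19938 genes lay within 1.5-fold as well, so this is not particular to the subunits.

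Itgal encodes the alpha chain of LFA-1 (CD11a) and had the largest difference of the 10. It measured 9.28, 8.97 and 9.44 in Ly-6C-negative replicates 1, 2 and 3, against 8.93, 9.001 and 8.99 in Ly-6C-positive replicates 1, 2 and 3. Ly-6C-negative replicates 1 and 3 lay above all Ly-6C-positive arrays, and Ly-6C-negative replicate 2 lay among them, so the groups overlapped. The means were 9.23 ± 0.24 in Ly-6C-negative cells and 8.97 ± 0.037 in Ly-6C-positive cells (SD, n = 3 each), a difference of 0.26, or 1.19-fold, ± 0.11 (SE; limma adjusted p = 0.732). The spread was thus wider in Ly-6C-negative cells. Without Ly-6C-negative replicate 2, the array that stood apart, the difference was 0.39 (limma adjusted p = 0.127), and without Ly-6C-negative replicate 3 it was 0.15 (limma adjusted p = 0.743).

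Itgb2 encodes the beta chain of LFA-1 (CD18), which also pairs with the alpha chains of myeloid integrins. It measured 9.05, 8.97 and 9.25 in Ly-6C-negative cells, against 8.99, 8.90 and 9.15 in Ly-6C-positive cells. In both groups replicate 3 was highest and replicate 2 lowest, and the ranges overlapped. Within same-numbered pairs the Ly-6C-negative array was higher by 0.062, 0.061 and 0.096. The group difference was 0.073 ± 0.093 (SE; limma adjusted p = 0.935).

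Itga4 encodes alpha 4 (CD49d), which pairs with beta 1 to bind VCAM-1 and with beta 7 to bind the gut addressin MAdCAM-1. Its values were 10.37, 10.44 and 10.72 in Ly-6C-negative cells, against 10.37, 10.33 and 10.55 in Ly-6C-positive cells. Replicate 3 was again the highest in both groups, and the groups overlapped. The difference was 0.091 ± 0.10 (SE; limma adjusted p = 0.921).

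Itgb7 encodes beta 7, the partner of alpha 4 and of alpha E. It measured 8.58, 8.78 and 8.73 in Ly-6C-negative cells, against 8.67, 8.74 and 8.88 in Ly-6C-positive cells. The groups overlapped and had SDs of 0.10 each. The difference was -0.065 ± 0.081 (SE; limma adjusted p = 0.931), so the signs of Itga4 and Itgb7 differed while neither passed.

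Itgae encodes alpha E (CD103), which with beta 7 binds E-cadherin on epithelium and is known from intraepithelial lymphocytes, naive CD8 T cells and subsets of regulatory T cells. It measured 5.50, 5.35 and 5.44 in Ly-6C-negative cells, against 5.54, 5.50 and 5.51 in Ly-6C-positive cells. All Ly-6C-negative arrays lay below all Ly-6C-positive ones, by 0.0038 at the closest point. The means were 5.43 ± 0.074 and 5.52 ± 0.021 in Ly-6C-negative and Ly-6C-positive cells (SD, n = 3 each), a difference of -0.088 ± 0.067 (SE; limma adjusted p = 0.886). The gene lay below the median gene, where RMA compresses differences.

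Itgb1 encodes beta 1 (CD29), the shared partner of alpha 4, alpha 6 and many other alpha chains. It measured 8.46, 8.20 and 8.17 in Ly-6C-negative cells, against 8.16, 8.17 and 8.09 in Ly-6C-positive cells. Ly-6C-negative replicate 1 stood above the other 5 arrays, and the lowest Ly-6C-negative array exceeded the highest Ly-6C-positive array by 0.0011. The difference was 0.14 ± 0.085 (SE; limma adjusted p = 0.842), and it was 0.050 without Ly-6C-negative replicate 1 (adjusted p = 0.957 with limma).

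Itga6 encodes alpha 6 (CD49f), a laminin receptor chain that pairs with beta 1 in T cells. It measured 10.17, 9.85 and 10.08 in Ly-6C-negative cells, against 10.24, 10.19 and 10.08 in Ly-6C-positive cells. Ly-6C-negative replicate 2 was the lowest of the 6 arrays, and the groups overlapped. The difference was -0.14 ± 0.092 (SE; limma adjusted p = 0.861), and it was -0.046 without Ly-6C-negative replicate 2 (adjusted p = 0.889 with limma).

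Itgav encodes alpha v (CD51), which pairs with beta 1, beta 3 and beta 8 and binds proteins with an RGD motif, among them latent TGF-beta. It measured 8.19, 8.03 and 8.15 in Ly-6C-negative cells, against 8.02, 7.996 and 8.01 in Ly-6C-positive cells. The groups did not overlap, with Ly-6C-negative replicate 2 next to the Ly-6C-positive arrays. The means were 8.12 ± 0.082 and 8.01 ± 0.014 in Ly-6C-negative and Ly-6C-positive cells (SD, n = 3 each), a difference of 0.11 ± 0.068 (SE; limma adjusted p = 0.842).

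Itgb3 encodes beta 3 (CD61), known best from platelets, where its partner is Itga2b, and from the vitronectin receptor with alpha v. It measured 8.37, 8.43 and 8.46 in Ly-6C-negative cells, against 8.32, 8.32 and 8.37 in Ly-6C-positive cells. The groups were separated by 0.0080, and the difference was 0.084 ± 0.063 (SE; limma adjusted p = 0.885). Itga2b measured 6.41 ± 0.062 in Ly-6C-negative cells and 6.35 ± 0.035 in Ly-6C-positive cells (SD, n = 3 each), a difference of 0.061 (limma adjusted p = 0.919). The 7 measured platelet and erythrocyte markers averaged 5.44 to 5.46 on Ly-6C-negative arrays and 5.43 to 5.49 on Ly-6C-positive arrays, and 0 of 7 passed the limma threshold, with none at an unadjusted p under 0.05.

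Itgb8 encodes beta 8, which with alpha v activates latent TGF-beta and is known in dendritic cells and regulatory T cells. It measured 5.62, 5.46 and 5.52 in Ly-6C-negative cells, against 5.50, 5.58 and 5.42 in Ly-6C-positive cells. The groups overlapped. The difference was 0.033 ± 0.073 (SE; limma adjusted p = 0.967), the smallest of the 10, and the gene lay below the median gene.

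**Figure D1:**
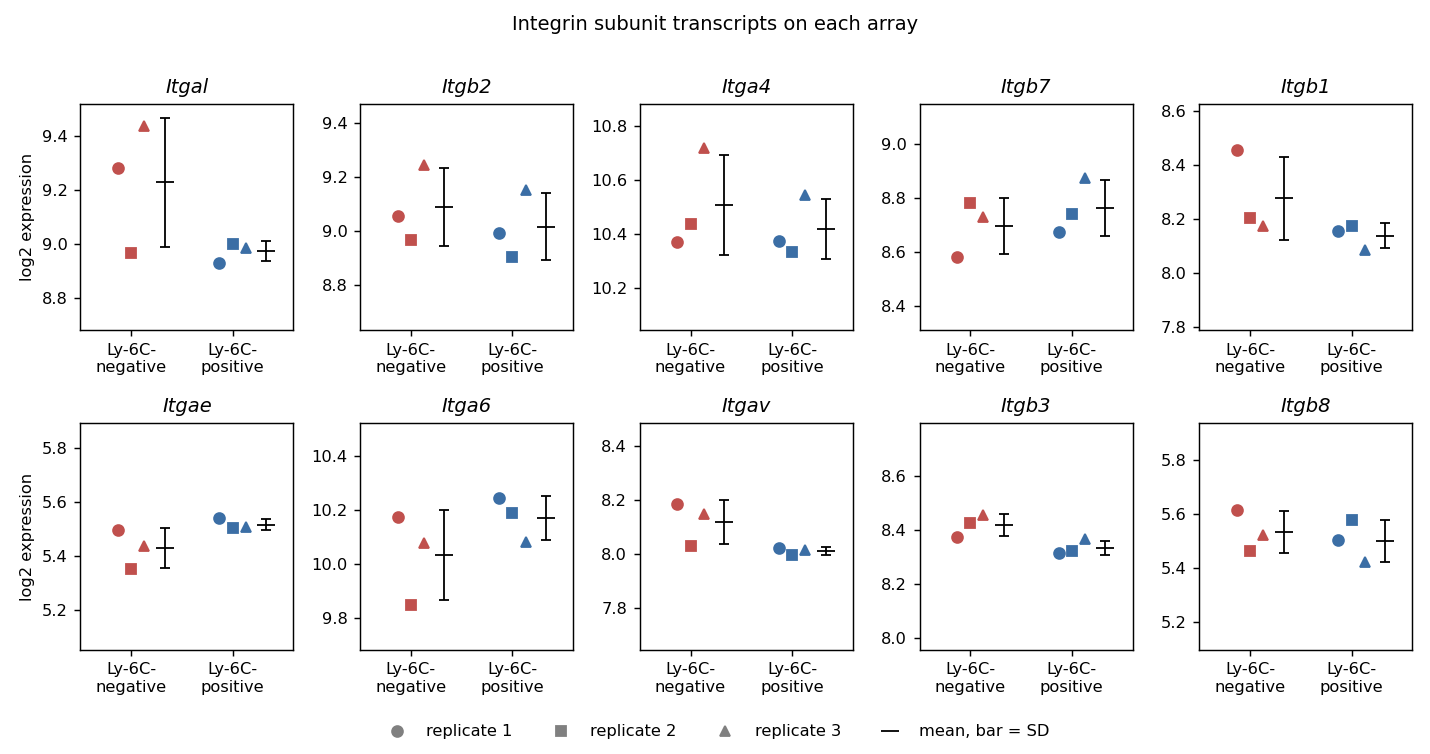
Log2 expression of the 10 integrin subunits on each array, Ly-6C-negative on the left of each panel and Ly-6C-positive on the right; marker shapes give the replicate number and the black bars the mean and SD (n = 3). Every panel spans the same range of log2 values, and Itgal shows Ly-6C-negative replicates 1 and 3, at 9.28 and 9.44, above the other 4 arrays.

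For 4 of 10 subunits the Ly-6C-negative arrays lay wholly to one side of the Ly-6C-positive arrays, a separation that 12.6% of all genes showed. Itgb1, Itgav and Itgb3 had all Ly-6C-negative arrays above (6.12% of all genes) and Itgae had them below (6.5% of all genes). In each of these 4 the gap between the groups lay between 0.0011 and 0.0080, and none passed the limma threshold. The median difference of the 10 was 0.078, against -0.0048 for all genes, with 7 of 10 above 0, against 47.8% of all genes. Averaged over the 10 subunits, the log2 value lay between 8.25 and 8.39 on Ly-6C-negative arrays and between 8.27 and 8.30 on Ly-6C-positive arrays. The Ly-6C-positive arrays thus fell inside the range of the Ly-6C-negative ones. The SD was larger in Ly-6C-negative than in Ly-6C-positive cells for 9 of 10 subunits, against 61.6% of all genes. Ly-6C-negative replicate 2 was the lowest Ly-6C-negative array in 6 of 10 subunits, against 38.1% of all genes.

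In a limma fit with replicate number as block, 0 of 10 passed as well, and Itgal had an adjusted p of 0.615. Within same-numbered pairs, Itgav differed by 0.16, 0.033 and 0.13, Itgb3 by 0.057, 0.10 and 0.089, and Itgb1 by 0.30, 0.031 and 0.087. Those 3 and Itgb2 were higher in the Ly-6C-negative array of all 3 pairs. Itgae differed by -0.042, -0.15 and -0.071 and Itga6 by -0.070, -0.34 and -0.0026, lower in all 3 pairs. In the block fit, the limma adjusted p of the subunits with 1 sign in all 3 pairs lay between 0.812 and 0.899. How often all genes have 1 sign in all 3 pairs was not computed, so these signs are a description only. Itgal differed by 0.35, -0.036 and 0.45, with replicate 2 of the opposite sign.

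**Figure D2:**
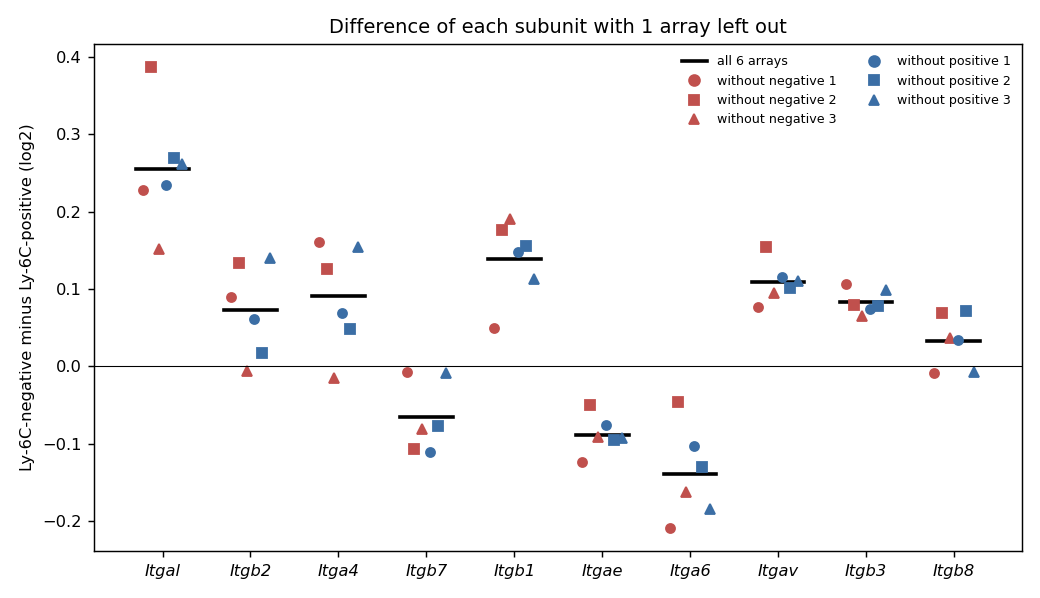
Difference of each integrin subunit on the log2 scale (Ly-6C-negative minus Ly-6C-positive) with all 6 arrays (black line) and with 1 array left out (points, coloured by the group and shaped by the number of the array left out). Itgal ran from 0.15 to 0.39, and Itga4, Itgb2 and Itgb8 crossed 0.

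The upstream sequences of Itgb1 and Itgav are shown because these subunits had all Ly-6C-negative arrays above all Ly-6C-positive ones and RefSeq promoters in the table at hand, which held 5 of the 10 members. Each is the 250 bases before a RefSeq gene start on GRCm38.p6, read on the gene's strand, and capitals mark the motifs searched for on both strands.
Itgb1, chr8:128685404-128685653, plus strand: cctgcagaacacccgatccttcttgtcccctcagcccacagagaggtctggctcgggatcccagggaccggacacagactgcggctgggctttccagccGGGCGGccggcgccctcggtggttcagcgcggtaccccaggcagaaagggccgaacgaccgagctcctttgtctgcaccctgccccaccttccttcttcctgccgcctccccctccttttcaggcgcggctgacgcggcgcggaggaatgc
Itgav, chr2:83724147-83724396, plus strand: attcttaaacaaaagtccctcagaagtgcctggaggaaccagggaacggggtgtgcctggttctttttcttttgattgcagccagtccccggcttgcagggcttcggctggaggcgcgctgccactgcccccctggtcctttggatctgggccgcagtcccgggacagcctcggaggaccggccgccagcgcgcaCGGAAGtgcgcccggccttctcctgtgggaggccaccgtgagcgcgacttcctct
The motifs were the RUNX core TGTGGT, the ETS core CGGAAG and the GC box GGGCGG, which do not overlap here. Itgb1 held 1 GC box, as 32.7% of all 32851 promoters of this length do, and Itgav held 1 ETS core, as 13.6% do. Itga4 held 1 RUNX core, as 14.05% of promoters do, and 1 GC box, while Itgb7 and Itgb8 held none of these letters in this window. The matches are descriptions of the sequence and were not related to the expression values.

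The other 17 integrin subunits of the mouse on the array gave a similar picture. With limma, 0 of 17 passed over all genes and 1, against 6.71% of all genes, had an unadjusted p under 0.05. That one was Itga9, the alpha 9 chain, a partner of beta 1 that binds tenascin and VCAM-1. It measured 5.65, 5.62 and 5.75 in Ly-6C-negative cells, against 5.46, 5.27 and 5.42 in Ly-6C-positive cells. The groups did not overlap, and the difference was 0.29 ± 0.075 (SE; limma adjusted p = 0.427). The Itga9 means of 5.67 in Ly-6C-negative and 5.38 in Ly-6C-positive cells lay below the median gene, where RMA compresses differences. Itga5, the fibronectin receptor chain, differed by -0.11 (limma adjusted p = 0.898) and Itgam, the myeloid chain CD11b, by 0.084 (limma adjusted p = 0.910). The median of the 17 was 0.021, with 11 above 0. Of these subunits 13 of 17 lay below the median gene, against 2 of 10 in the set described here. The 95% intervals of all 17 lay within 1.5-fold, as did those of 19695 of the 19938 genes.

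**Figure D3:**
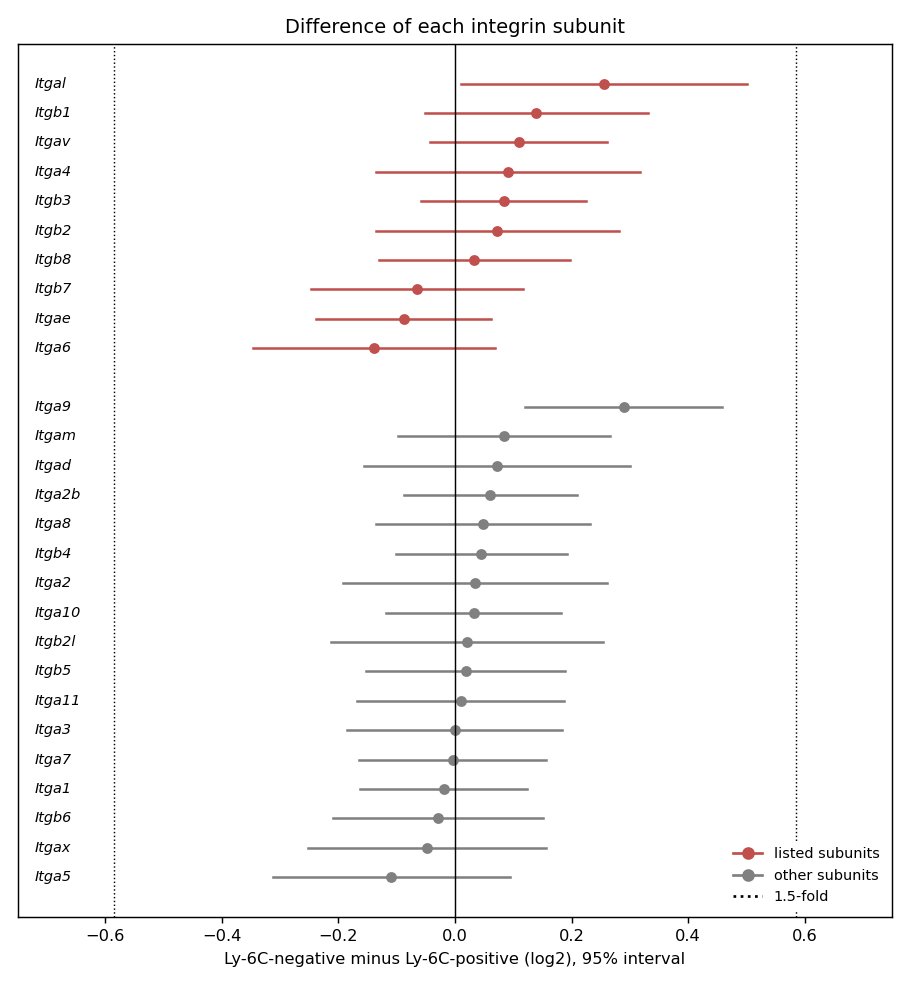
Difference in log2 expression (Ly-6C-negative minus Ly-6C-positive) of the 10 listed integrin subunits (red) and the 17 other subunits (grey), with unadjusted 95% intervals from limma; dotted lines mark 1.5-fold. All intervals lie between the dotted lines, and those of Itgal and Itga9 do not reach 0.

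Genes that open or restrain integrins did not pass. Of 36 measured activators and inhibitors, talin, kindlin, Rap1 and its regulators among them, 0 passed over all genes with limma. An unadjusted p under 0.05 was seen in 2, against 6.71% of all genes. Rasgrp1, an exchange factor that links antigen receptor signals to Ras, measured 10.44, 10.40 and 10.62 in Ly-6C-negative cells, against 10.28, 10.26 and 10.24 in Ly-6C-positive cells. The groups did not overlap, and the difference was 0.22 ± 0.075 (SE; limma adjusted p = 0.594). Skap2, an adaptor of integrin signalling, differed by 0.20 (limma adjusted p = 0.641), Mob1b by 0.17 (0.819) and Fermt2, a kindlin gene, by -0.16 (0.786). Fermt2 was dim, at 5.53 in Ly-6C-negative and 5.69 in Ly-6C-positive cells. Of the other kindlin genes, Fermt3 measured 7.80 in both groups and differed by 0.0035, and Fermt1 differed by -0.020 (limma adjusted p of 0.999 and 0.981). The median of the list was 0.035, with 27 of 36 above 0, against 47.8% of all genes.

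Of 32 measured genes of the adhesion complex and of signalling from bound integrins, 0 passed over all genes with limma. At an unadjusted p under 0.05 there were 3, 2 above 0 and 1 below, against 6.71% of all genes. The groups did not overlap in 4 of the 32, against 12.6% of all genes. Ly-6C-negative arrays lay above in 3 and below in 1, against 6.12% and 6.5% of all genes. Ptk2b, the gene of the focal adhesion kinase relative Pyk2, had the smallest p of all integrin-linked lists. It measured 8.84, 8.79 and 8.90 in Ly-6C-negative cells, against 8.54, 8.55 and 8.62 in Ly-6C-positive cells. All Ly-6C-negative arrays were higher, with a difference of 0.27 and a standard error of 0.065 (limma adjusted p = 0.357). Lims1, the gene of the adaptor PINCH, differed by 0.19 (limma adjusted p = 0.707). The list had a median of 0.017, with 20 of 32 above 0.

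Integrin ligands and matrix genes are dim in these cells, with 18 of 22 measured below the median gene. With limma, 0 of 22 passed over all genes and 1, Icam4, had an unadjusted p under 0.05, against 6.71% of all genes. Icam4, a ligand of beta 2 integrins known from red cells, differed by -0.16, the fibronectin gene Fn1 by -0.16 and the laminin genes Lamc1 and Lamb1 by -0.16 and 0.11 (limma adjusted p from 0.738 to 0.846). The list median was -0.061, with 6 of 22 above 0.

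Genes around alpha v and TGF-beta, the ligands, latency proteins, receptors and Smads, gave 0 of 18 past the limma threshold. An unadjusted p under 0.05 was found for 3, against 6.71% of all genes. In 7 of 18 the groups did not overlap, 6 of them with Ly-6C-negative cells above, against 12.6% and 6.12% of all genes. Ski, a repressor of Smad targets, differed by 0.19, Furin, the protease that processes the TGF-beta precursor, by 0.16, the co-receptor gene Tgfbr3 by 0.14 and Tgfb2 by 0.13 (limma adjusted p from 0.644 to 0.801). The list median was 0.064, with 11 of 18 above 0.

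The 22 measured genes of lymph node and gut homing gave 0 past the limma threshold. There were 4 with an unadjusted p under 0.05, against 6.71% of all genes. St3gal4, a sialyltransferase that builds selectin ligands, measured 6.95, 6.86 and 7.02 in Ly-6C-negative cells, against 6.73, 6.65 and 6.60 in Ly-6C-positive cells, a difference of 0.28 (limma adjusted p = 0.413). Fut7, the fucosyltransferase of the same pathway, differed by -0.21 (limma adjusted p = 0.697), so these enzymes had opposite signs. The chemokine receptor genes Ccr6, at -0.20 (limma adjusted p = 0.588), and Cxcr5, at 0.22 (limma adjusted p = 0.668), also had opposite signs. Fut7, Ccr6 and Cxcr5 were dim, with group means from 4.31 to 5.72, below the median gene at 6.37. The median of the list was 0.017, with 13 of 22 above 0.

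**Figure D4:**
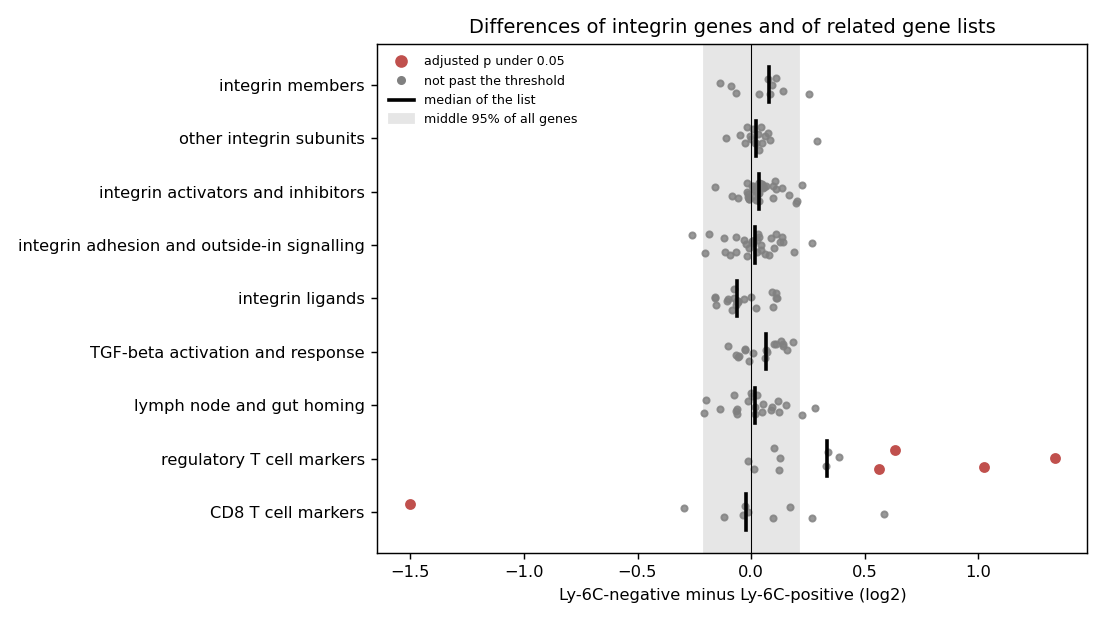
Differences in log2 expression (Ly-6C-negative minus Ly-6C-positive) of the genes of each list, with the list median as a black line and the middle 95% of all genes, from -0.21 to 0.21, in grey. Red points passed the limma threshold of adjusted p 0.05, and of the lists drawn they lie in those of regulatory T cell and CD8 T cell markers; the NK marker list, with 1 such gene, is not drawn.

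Markers of other cells that express integrins are given beside these values. Of 12 regulatory T cell markers, 4 passed over all genes, against 0.145% of all genes. These were Ctla4, Izumo1r, Ikzf2 and Gpr83, all higher without Ly-6C by 0.56 to 1.34 (limma adjusted p from 0.00200 to 0.0325). Their count was 1, 4 and 3 without Ly-6C-negative replicate 1, 2 or 3, and 2, 1 and 1 without Ly-6C-positive replicate 1, 2 or 3. The 12 markers averaged 7.35 to 7.50 on Ly-6C-negative arrays and 6.97 to 7.03 on Ly-6C-positive arrays. At an unadjusted p under 0.05 there were 7 of the 12, all above 0, against 6.71% of all genes in either direction. Foxp3 itself differed by 0.013 and Tnfrsf18 by -0.012 (limma adjusted p of 0.995 and 0.996). Il2ra differed by 0.12 and Tigit by 0.13 (limma adjusted p of 0.916 and 0.904). Itgae and Itgb8, subunits known from regulatory T cells, differed by -0.088 and 0.033 on the same arrays. Their relation to the marker difference was not tested.

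Among 10 CD8 T cell markers 1 passed over all genes, against 0.145% of all genes. This was the receptor gene Klrd1, at -1.50 (limma adjusted p = 0.0263). Among 10 measured NK and innate lymphoid markers 1 passed as well, against the same 0.145% of all genes. This was the granzyme gene Gzma, at -0.69 (limma adjusted p = 0.0392). Both lost the call without Ly-6C-negative replicate 1 (0.133 and 0.143) or 3 (0.0607 and 0.0657) and without any 1 Ly-6C-positive array (0.0683 to 0.290), and Gzma also lost it with every probe set as a feature (0.0622). The CD8 list went both ways, with 2 markers above 0 and 2 below at an unadjusted p under 0.05, against 6.71% of all genes. Higher without Ly-6C were Ccl5, at 0.59, and Eomes, at 0.27, and lower beside Klrd1 was Crtam, at -0.29. None of these 3 passed with limma. Cd8a stood at -0.029 and Cd8b1 at -0.12. In the NK list 3 of 10 markers were below 0 at an unadjusted p under 0.05 and 0 above, against 6.71% of all genes. Beside Gzma these were Prf1, at -0.70, and Fcer1g, at -0.17 (limma adjusted p of 0.145 and 0.741). Of all 10 NK markers 7 lay below 0 and 3 above. The CD8 markers averaged 6.26 to 6.47 on Ly-6C-negative arrays and 6.42 to 6.45 on Ly-6C-positive arrays. The NK markers averaged 5.15 to 5.21 on Ly-6C-negative arrays and 5.32 to 5.36 on Ly-6C-positive arrays. Dendritic cell and monocyte and neutrophil markers, which cover cells rich in beta 2 integrins, had 0 of 12 each past the limma threshold. At an unadjusted p under 0.05 there were 0 and 1, against 6.71% of all genes. B cell and stromal markers had 0 of 11 each, with none at an unadjusted p under 0.05. Of 7 measured gate genes 0 passed with limma and 1 had an unadjusted p under 0.05, against 6.71% of all genes. That one was the memory-linked adhesion receptor Cd44, at 6.98 ± 0.061 in Ly-6C-negative cells and 7.23 ± 0.038 in Ly-6C-positive cells (SD, n = 3 each). Its difference was -0.25 (limma adjusted p = 0.427).

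The genes whose values followed Itgal most closely over the 6 arrays were Sytl2, Mad2l1 and Dennd2d, each with a Pearson r of 0.990. These values share arrays and normalization, and with 6 points among all genes such r values are a description only. Their differences between Ly-6C-negative and Ly-6C-positive cells were 0.23, 0.16 and 0.18 (limma adjusted p of 0.724, 0.837 and 0.793).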

How the data were processed

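The authors deposited log2 expression values of 28853 probe sets on 6 arrays. Per the labels' protocols, total RNA was amplified and labelled with biotin, and RMA and Partek appear in the submitters' processing notes. RMA makes array distributions alike, so a change shared by all genes cannot be seen. Chip description and genome build: not given in the sources used here. The platform annotation gave 21789 probe sets 1 symbol, and the brightest of each gene was kept, leaving 19938 genes. The test was limma 3.58.1 under R 4.3.3 (lmFit, eBayes, 2-sided, no covariate, no filter), with a threshold of adjusted p 0.05 by Benjamini-Hochberg over all genes. Intervals use the moderated standard error. The main test was also run on simulated data, drawn as independent normal values with spreads from limma's own fit. Those data held no pairing and no array that stood apart, so the run cannot speak to either. Python 3.11.15 with matplotlib 3.10.9 drew the figures. Promoter sequences are from RefSeq (GRCm38.p6).

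The members and lists were chosen with earlier results of these data known. Named are all members, up to 4 genes per list with the smallest p, and the 3 genes most correlated with the member of smallest p; not every such gene is printed, and an item is not reported here. Both groups use the same replicate numbers. After group means were subtracted, arrays with the same number correlated across genes with r of 0.129, 0.128 and 0.107. Arrays of the 2 groups with different numbers had r from -0.107 to -0.0114. Because group means were subtracted, these r values are not independent of each other. The numbers were read as pairs on this basis, from the data and not from the labels, while the main test used no pairing. Alternatives were the replicate block, quantile normalization repeated, array medians subtracted, dim genes left out, every probe set or their mean per gene, array weights, trend and robust eBayes, and each array left out in turn.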

Additional observations from a re-analysis of the deposited data

How the results depend on the processing

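With limma, 0 of 10 subunits passed under any of the 14 alternatives, and the lowest adjusted p of any subunit was 0.127, for Itgal without Ly-6C-negative replicate 2. The 78 subunit differences under the alternatives that keep all arrays kept their sign; Itgae and Itgb8 were not tested without dim genes. With 1 array left out, Itga4 ran from -0.015 to 0.16, Itgb2 from -0.0061 to 0.14 and Itgb8 from -0.0079 to 0.072, and the other 7 kept their sign. The count of all genes past the threshold was 41 with the replicate block and 54 with array weights, against 29. It ran from 5 to 47 with 1 array left out. With every probe set as a feature, 45 of 28853 probe sets passed, which is not a count of genes. In the other gene lists 6 genes passed, 7 with the replicate block, and from 1 to 6 with 1 array left out. The replicate block changed no call of a subunit. The 3 arrays a group limit the precision, and the dim Itgae and Itgb8 lie where RMA compresses differences.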
